A study of Mus musculus with 8 samples.

Results

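Cluster C19 is a small group of endothelial cells, the cells that line blood vessels, found among sorted cells of the mouse mammary gland. Its members were the cells that the deposited cell annotation assigns to C19, marks as non-epithelial and passes on quality. This rule was met by 388 of the 25009 cells that passed quality, out of 1516 non-epithelial cells. The mice were of the C57BL/6N strain, 8 in all, and cells of each were made into a library of their own. There were 2 mice at each of 4 stages: nulliparous mice (NP) taken at 8 weeks of age, mice on day 14.5 of gestation (G), mice on day 6 of lactation (L), and mice 11 days after their pups were naturally weaned (PI). Dissociated glands had been sorted for EpCAM, an epithelial surface protein, and against CD31 (the product of Pecam1, on endothelial cells), CD45 (on leukocytes) and Ter119 (on red cells), so C19 holds those endothelial cells that passed a gate set to remove them. Cell droplets were sequenced from the 3′ end of polyadenylated RNA, with each molecule counted once by its unique molecular identifier (UMI).

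Endothelial cells form arteries, capillaries, veins and lymphatic vessels, and each segment carries its own transcripts. Arterial identity is known to depend on Notch signalling, in which the ligand Dll4 and the receptors Notch1 and Notch4 lead to targets such as Hey1 and Hes1. Venous cells display adhesion molecules through which leukocytes leave the blood, and capillaries of fat-rich tissue take up fatty acids through Gpihbp1, Cd36 and Fabp4. Around the secretory alveoli a capillary bed grows in pregnancy and supplies the gland with substrate for milk in lactation.

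The 388 cells were spread unevenly over the libraries, with 7 and 13 cells in the NP mice, 33 and 83 in the G mice, 191 and 51 in the L mice, and 0 and 10 in the PI mice. As a share of the cells that passed quality they made up 0.323% (95% Clopper-Pearson interval 0.130 to 0.665) and 0.632% (0.337 to 1.08) in NP. The share was 1.17% (0.807 to 1.64) and 2.76% (2.21 to 3.41) in G and 3.33% (2.88 to 3.83) and 1.42% (1.06 to 1.87) in L. In PI it was 0 of 1449 cells in mouse 1, which allows up to 0.207%, and 0.239% (0.114 to 0.438) in mouse 2. The G and L mice overlapped. The cells had been sorted against CD31, and how far the gate acted in each library was not measured, so the shares were not tested. Both mice of a stage held 20 or more cells only in G and L, which together hold 358 of the 388 cells. This left 1 comparison between stages. No C19 barcode occurred in more than 1 library and no C19 cell carried the authors' doublet flag. Summed over C19 cells the depth was 320306 and 776775 UMIs in the G mice and 807938 and 248029 in the L mice. The median C19 cell held 8370 and 7317 UMIs in G and 3378 and 4028 in L, close to the medians over all cells of these libraries (9624, 7829, 3770 and 4258). Its median mitochondrial share was 0.631% and 0.594% in G and 0.444% and 0.474% in L.

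The genes that set C19 apart were those of endothelium. Levels are given as CPM, the UMIs of a gene as a share of all UMIs summed over the C19 cells of a mouse, scaled to a total of 1e+06. The clusters were made from these same counts, so what follows is a description with no test. Of 1521 genes with at least 100 CPM in both L mice, the 25 with the largest ratio to the highest of 12 other clusters were led by Cldn5. This tight junction protein of endothelium was at 1293 and 1675 CPM in G and 943 and 1379 CPM in L, against 15.8 CPM in the next cluster, C15. Cdh5, the cadherin of endothelial adherens junctions, was even across the mice, with 1027 and 914 CPM in G and 1003 and 911 CPM in L, and C15 held 10.8 CPM. The other leading genes, in order, were Selp, Aqp1, Gpihbp1, Emcn, Egfl7, Cd300lg, Kdr, 8430408G22Rik, Plvap, Pecam1, Ptprb, Adgrl4, Sox17, Rbp7, Sox7, Icam2, Mmrn2, Tmem252, Flt1, Cytl1, Grrp1, Rasip1 and Pcdh17. They include the VEGF receptors Kdr and Flt1, the transcription factors Sox17 and Sox7, the water channel Aqp1 and the lipase-binding protein Gpihbp1. Of the 25, 11 were on the list of 26 pan-endothelial genes, and 25 of these 26 were higher in C19 than in every other cluster compared.

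**Figure D1:**
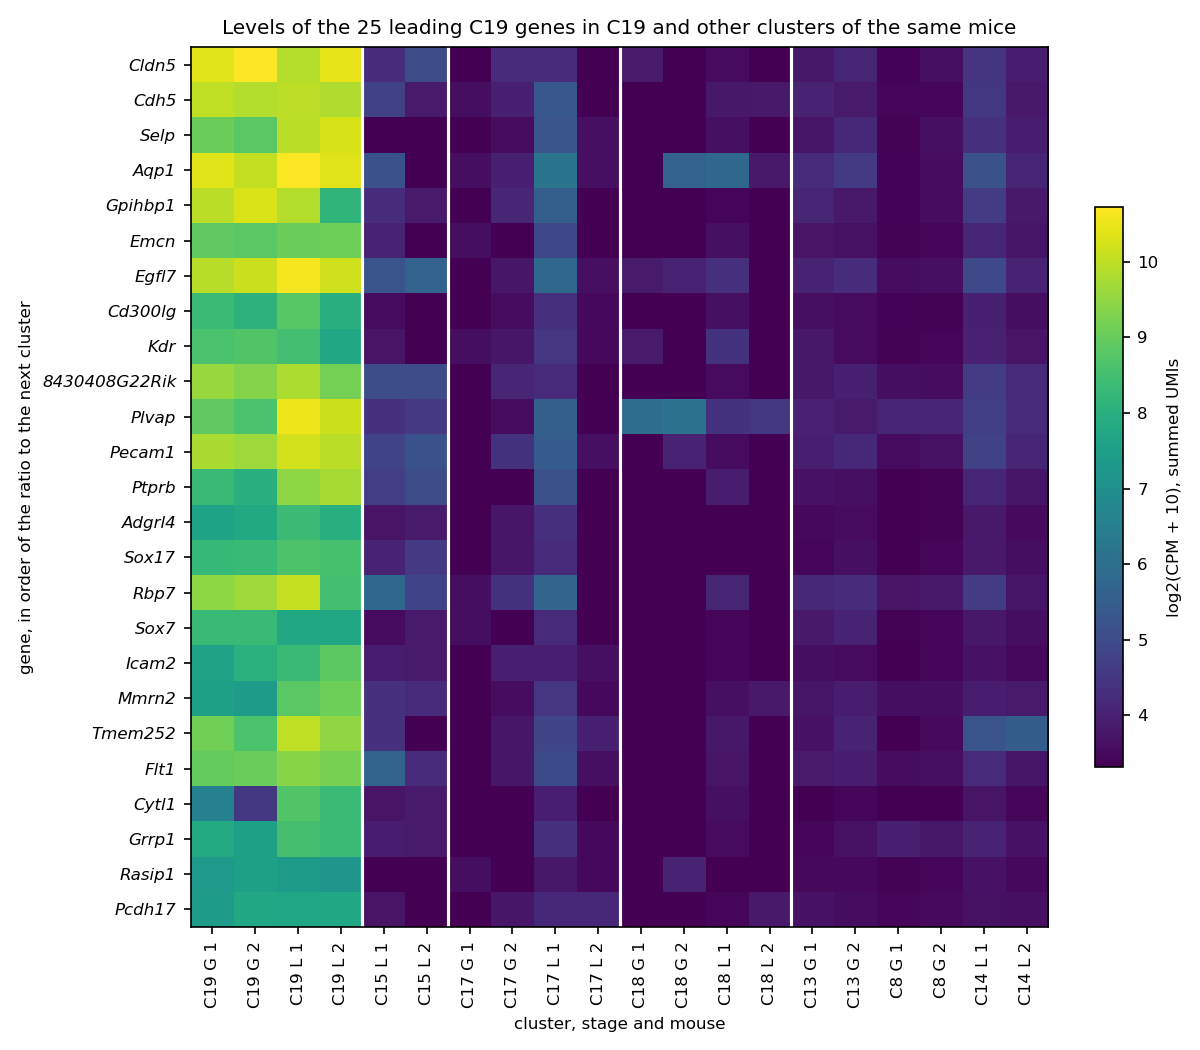
Levels of the 25 leading genes of C19 (rows, in order of their ratio to the next cluster) in the C19 cells and in 6 other clusters of the same mice (columns: cluster, stage and mouse), as log2(CPM + 10) of the summed UMIs. The 4 columns of C19 at the left are bright in nearly every row, while Cytl1 is dim in the G mice (84.3 and 12.9 CPM) and Gpihbp1 is dimmer in L mouse 2 (278 CPM) than in the other C19 columns.

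Of the 3 genes given as markers of the cluster, Pecam1 separated it from the other clusters, while Gng11 and Procr did not. Pecam1 (ENSMUSG00000020717, chromosome 11, 106654217 to 106750628 on the minus strand of GRCm38) stood at 877 and 783 CPM in G and 1179.5 and 988 CPM in L, and the next cluster, C16, was at 41.2 CPM. At least 1 Pecam1 UMI was found in 97.0% and 100% of C19 cells in G and 93.7% and 96.1% in L. For C17, tagged as immune in the authors' methods, the shares were 0% and 4.65% in G and 6.60% and 1.28% in L. Median depths of C17 were 6496 and 5562 UMIs in G and 5256 and 5416 in L. Gng11 (ENSMUSG00000032766, chromosome 6, 4003904 to 4008445), a G protein subunit, was at 939.7 and 1099 CPM in G and 1105 and 1133 CPM in L, and C15, a basal cluster that the annotation calls Prc, held 1006 and 908 CPM in the L mice. For Procr (ENSMUSG00000027611, chromosome 2, 155751117 to 155755471), the endothelial protein C receptor, the 4 values were 222 and 322 CPM in G and 234 and 552 CPM in L, below the 562 and 707 CPM of C15 in the same L mice. Endoglin (Eng), the sphingosine phosphate receptor S1pr1 and Emcn were all highest in C19, at means of 492 ± 187 CPM, 493 ± 119 CPM and 495 ± 43.9 CPM (SD, n = 4 mice). The next clusters were at 61.2, 30.6 and 5.61 CPM. The annotation gives C19 only a number, while the authors' methods call it endothelial from its Eng, S1pr1 and Emcn. Here the name rests on these genes and the pan-endothelial list rather than on the 3 markers alone.

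Of the other antigens of the sort, Ptprc and Epcam were low but not absent in every mouse. Ptprc, which encodes CD45, stood at 0 and 5.15 CPM in G and 6.19 and 0 CPM in L, with a UMI in 0% and 3.61% of cells in G and 2.09% and 0% in L. Epcam was at 62.4 and 116 CPM in G and 12.4 and 8.06 CPM in L, with a UMI in 30.3% and 32.5% of C19 cells in G, below the 56.7% and 44.2% of C17 cells in the same mice. The milk protein transcript Csn2 was at 587 and 615 CPM in G and 196 and 222 CPM in L in C19. Fibroblast-like C18 cells of the same mice held 638 and 299 CPM in G and 230.3 and 199 CPM in L. The source of this transcript in C19 was not tested. Haemoglobin differed between the mice of a stage, and the 6 erythroid genes summed to 43.7 and 1.29 CPM in G and 412 and 0 CPM in L. The pericyte list summed to 468 and 763 CPM in G and 881 and 270.1 CPM in L. Most of it was Rgs5, a regulator of G protein signalling, at 290.3 and 469.9 CPM in G and 516 and 153 CPM in L, and C15 held 4288 and 3559.7 CPM of this gene in L.

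From gestation to lactation the C19 transcriptome changed widely. Counts were summed per mouse and tested with edgeR's quasi-likelihood F-test, 2 mice against 2, with Benjamini-Hochberg adjustment over all 6596 genes tested. At an adjusted p under 0.05, 456 genes were higher in L and 401 lower, so that 13% of genes tested were called, 6.91% as higher and 6.08% as lower. At an unadjusted p under 0.05 there were 1841 genes. The median log2 fold change of all genes tested was -0.0018. With 2 mice a stage an exact permutation test of a single gene cannot give a p below 0.333, so the calls rest on the spread shared across genes. In a sum over cells, fewer cells with a transcript and less of it per cell cannot be told apart. C19 cells of L were shallower than those of G, and with each cell thinned to 1000 UMIs 204 of 1245 genes tested passed, 117 higher and 87 lower.

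Among the gene lists the arterial genes had the largest median change of those with more than 5 genes tested. Some lists with fewer genes tested had medians larger in size. These were -2.04 for luminal epithelial genes (4 of 5 lower), 3.15 for immune genes (2 tested) and 3.59 for erythroid genes (1 tested). Of 11 arterial genes 8 were higher in L and none was lower, with a median log2 fold change of 1.99, also with Gja5 placed at its bound. The venous list followed, with 5 of 9 higher and a median of 1.12, and the immediate early and stress list, with 15 of 20 higher and a median of 0.97. For the pan-endothelial list 9 of 26 were higher and none lower (median 0.50). None of the 12 junction genes and none of the 5 lymphatic genes tested passed the test, with medians of -0.07 and -0.26. Capillary genes were divided, with 2 of 10 lower, none higher and a median of 0.04. Over all genes tested 6.91% were called higher and 6.08% lower, and the count of each list here and below is to be read beside these shares.

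**Figure D2:**
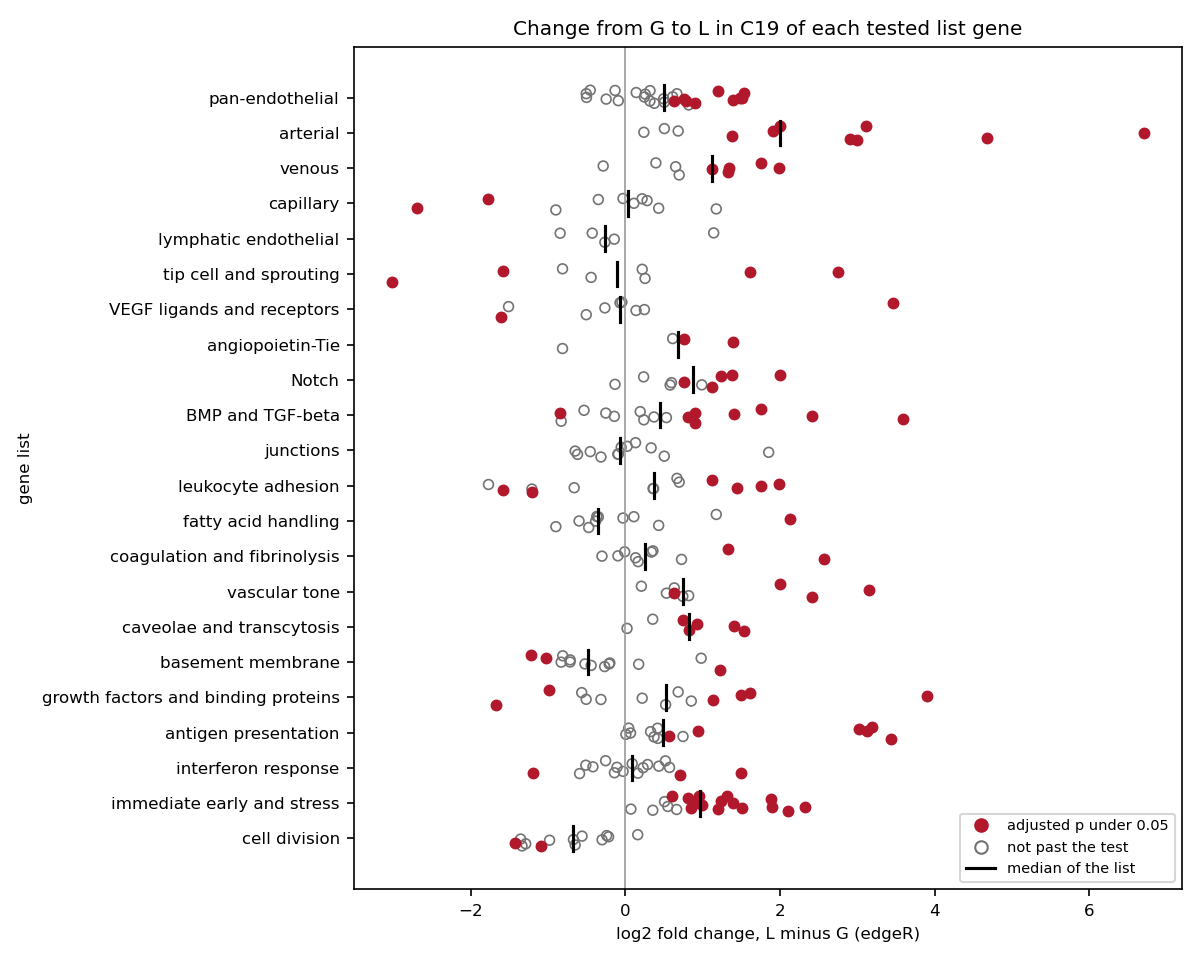
Log2 fold change from G to L in C19 (x axis, edgeR, 2 mice against 2) of each tested gene of 22 lists (y axis), filled where the adjusted p was under 0.05 and open where it was not, with the median of the list as a black bar. The arterial genes extend furthest to the right, the junction genes are all open, and the cell division genes lie mostly left of 0. The point furthest right is Gja5, which had 0 UMIs in G, so its place on the axis is a fitted value and no bound.

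Of 11 arterial genes tested 8 rose. Gja4, a connexin of arterial endothelium, was at 59.3 and 43.8 CPM in G and 355 and 439 CPM in L (log2 fold change 2.91 ± 0.24 (SE), adjusted p = 2.92e-05). Fbln5, a matrix protein that binds elastic fibres, was at 125 and 85.0 CPM in G and 647 and 1089 CPM in L (log2 fold change 3.00 ± 0.28 (SE), adjusted p = 6.94e-05). The semaphorin Sema3g was at 9.37 and 16.7 CPM in G and 84.2 and 218 CPM in L. In these 3 genes the lower L mouse exceeded the higher G mouse, where 56.7% of all genes tested had no overlap in one direction or the other. The tyrosine kinase Bmx was at 0 and 2.57 CPM in G and 35.9 and 92.7 CPM in L. Its rise rested on 2 UMIs in the G mice against 52 in L, a ratio of 27.0 with a counting interval of 7.11 to 229. Gja5, the other arterial connexin, had no UMI in the G mice and 25 in the L mice, which makes it at least 8.66-fold higher in L when G is set to a floor of 3 UMIs over both mice. The Notch target Hey1, the ephrin Efnb2, whose receptor EphB4 marks veins, and Dll4 also rose, by 1.99, 1.91 and 1.38 on the log2 scale. Sox17, at 299.7 and 314 CPM in G and 395 and 367 CPM in L, Unc5b and Cxcl12 did not pass. Of the 8 calls only that of Gja5 was lost when a library was left out, without G mouse 2 (adjusted p = 0.13).

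Secreted factors and a cytoskeletal gene rose by folds like those of the arterial genes. Stmn2 (ENSMUSG00000027500, chromosome 3, 8509360 to 8561606), a microtubule regulator best known from neurons, went from 6.24 and 21.9 CPM in G to 279.7 and 867 CPM in L (log2 fold change 4.91 ± 0.56 (SE), adjusted p = 0.000141). Igf2, an insulin-like growth factor, was at 0 and 37.3 CPM in G and 235 and 609 CPM in L (log2 fold change 3.90 ± 0.56, adjusted p = 0.000781), and L mouse 2 was the higher of the L mice for both genes. Edn1, the vasoconstrictor endothelin, was at 18.7 and 32.2 CPM in G and 163 and 403 CPM in L and rose by 3.15. The lymphangiogenic factor Vegfc was at 6.24 and 7.72 CPM in G and 61.9 and 129 CPM in L and rose by 3.46. Neither stage overlapped the other in any of the 4 genes, which was also so for 56.7% of all genes tested.

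**Figure D3:**
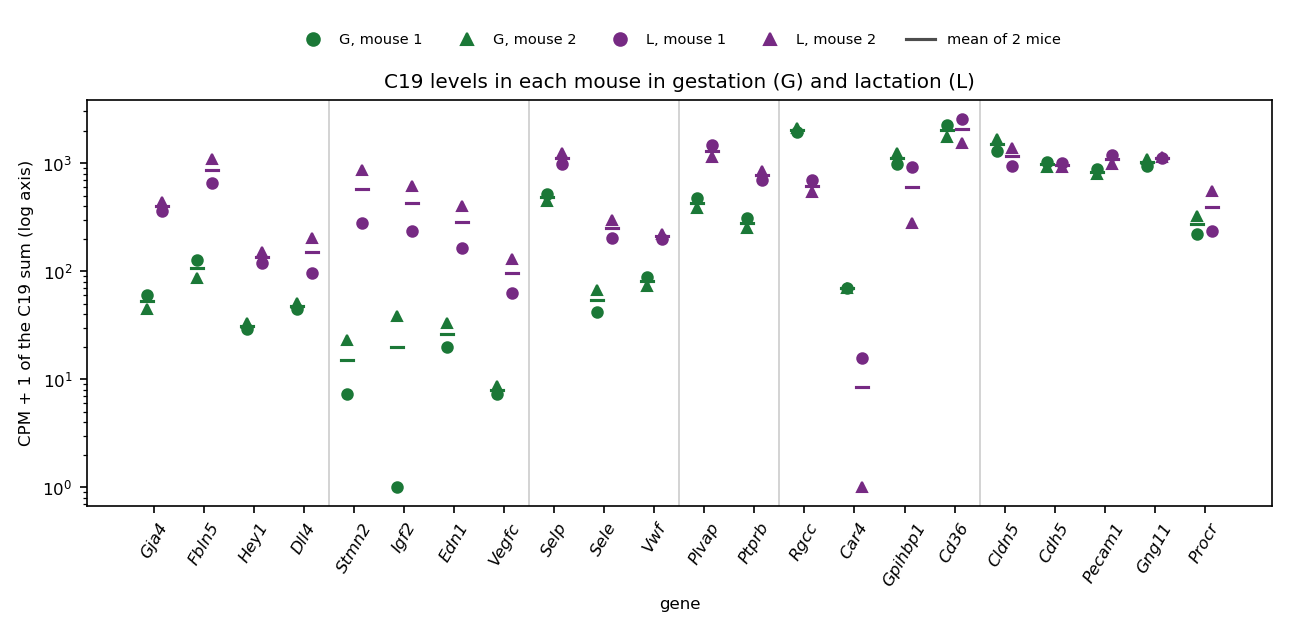
CPM + 1 of 22 genes (x axis) in the summed C19 cells of each mouse (y axis, log scale), with G in green and L in purple, circles for mouse 1, triangles for mouse 2, and a bar at the mean of the 2 mice. Grey lines divide arterial genes, other steep rises, venous genes, other endothelial rises, capillary genes, and junction genes with the cluster markers, and Cdh5, Cd36, Cldn5 and Procr overlap between the stages.

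Of 9 venous genes tested 5 rose, and of 13 leukocyte adhesion genes 4 rose and 2 fell. E-selectin (Sele), through which leukocytes begin to roll, was at 40.6 and 65.7 CPM in G and 201 and 294 CPM in L (log2 fold change 1.99 ± 0.27 (SE), adjusted p = 0.000537). P-selectin (Selp) was at 521 and 443 CPM in G and 980.3 and 1229.7 CPM in L (log2 fold change 1.12 ± 0.18, adjusted p = 0.0016). Von Willebrand factor (Vwf), which tethers platelets, was at 87.4 and 72.1 CPM in G and 196 and 222 CPM in L (log2 fold change 1.33). Both mice of L lay above both mice of G for these 3 genes, where 56.7% of all genes tested had no overlap in one direction or the other. Vcam1 and Lrg1 rose as well, by 1.76 and 1.35 on the log2 scale, but missed the threshold without G mouse 2 (adjusted p = 0.054 and 0.067). The atypical chemokine receptor Ackr1, at 190.4 and 196 CPM in G and 223 and 479.8 CPM in L, Nr2f2, Ephb4 and Aplnr did not pass. On the list of 13 leukocyte adhesion genes 4 were higher, namely Sele, Selp, Vcam1 and Cd99l2. The 2 that were lower were chemokines that draw T cells. Cxcl10 was at 980.3 and 595 CPM in G and 192 and 391 CPM in L. Cxcl9 was at 234 and 263 CPM in G and 86.6 and 165 CPM in L. Cd99l2 lost its call without G mouse 2 or L mouse 1 (adjusted p = 0.39 and 0.2), and Cxcl9 without L mouse 1 (adjusted p = 0.11). The cells with immune UMIs were those with a UMI of Ptprc, C1qa, C1qb or Lyz2. Without them 2 of 12 tested adhesion genes were higher and 4 lower. Vcam1 (adjusted p = 0.071) and Cd99l2 (adjusted p = 0.089) then missed the threshold, while the chemokines Ccl2, with a log2 fold change of -3.92 with an adjusted p of 8.73e-06, and Cxcl1, with -1.03 with an adjusted p of 0.008, passed as lower. Without the cells with lymphatic genes 4 of 13 were higher and 4 lower.

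Capillary genes did not move as a group. Rgcc, a cell cycle regulator that marks capillaries, was the clearest fall, at 1954 and 2101 CPM in G and 698 and 536 CPM in L (log2 fold change -1.77 ± 0.17 (SE), adjusted p = 8.87e-05). Car4, a carbonic anhydrase on the capillary surface, had 68.7 and 68.2 CPM in G and 14.9 and 0 CPM in L, with 12 UMIs in L mouse 1 and 0 in L mouse 2. The abundant fatty acid genes Fabp4, Cd36 and Gpihbp1 did not pass the main test. The fatty acid binding protein Fabp4 was at 18832 and 17355 CPM in G and 17594 and 12374 CPM in L. The fatty acid translocase Cd36 was at 2245 and 1756 CPM in G and 2561 and 1528 CPM in L. Gpihbp1 was at 987 and 1249 CPM in G and 926 and 278 CPM in L, with an adjusted p of 0.11 and its L mice far apart. Its call depended on the setting. Its log2 fold change was -0.90, and -0.91 with an adjusted p of 0.024 without the cells with immune UMIs, and it ran from -2.11 without L mouse 1 to -0.36 without L mouse 2. Of 11 fatty acid genes tested 1 passed, the transporter Slc27a3, at 9.37 and 6.44 CPM in G and 38.4 and 24.2 CPM in L, and it was lost without G mouse 2 (adjusted p = 0.31).

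Cells were also described one by one, by the arterial and venous list genes they held. Each cell was thinned to 1000 UMIs, so that the deeper G cells had no advantage, and grouped by whether 2 or more genes of the arterial or of the venous list were seen. The groups are cut from the counts and mark a range, not a cell type, so no test was made. Cells with arterial genes only were 7 of 33 and 13 of 83 in the G mice and 53 of 191 and 14 of 51 in the L mice. Cells with venous genes only were 6 and 23 in G and 86 and 27 in L, or 18.2% and 27.7% of C19 in G against 45.0% and 52.9% in L. Both sets were seen in 2, 1, 5 and 1 cells. Cells with neither made up 54.5% and 55.4% of C19 in G and 24.6% and 17.6% in L. Many cells lay near the cut, with exactly 1 arterial gene in 7 and 33 cells in G and 58 and 9 in L, and exactly 2 in 6, 9, 22 and 5. In the cells with arterial genes only, the median count of capillary genes was 5 and 4 in G and 3 and 2 in L. Of those arterial-only cells, 2 of 7 and 5 of 13 in G held a UMI of Gja4, Gja5, Bmx, Sema3g, Fbln5 or Hey1 after thinning, against 48 of 53 and 13 of 14 in L. Most arterial-only cells of G thus met the rule through other genes of the list.

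Genes that neither list holds were also compared between these groups of cells, with no test. In L, Cldn5 stood at 2285 and 2688 CPM in the arterial-only cells and 156 and 211 CPM in the venous-only cells. In G the 2 groups held 1589.9 and 1863 CPM and 952 and 1579 CPM. Over the whole cluster a Cldn5 UMI was seen in 87.9% and 89.2% of cells in G and 45.5% and 45.1% in L. After thinning the shares were 60.6% and 65.1% in G and 34.0% and 37.3% in L, while the summed level did not pass the test. Stmn2 was at 898 and 2186 CPM in arterial-only and 29.3 and 0 CPM in venous-only cells of L. Igf2 was divided in the same way in L, at 743 and 1548 CPM against 16.3 and 0 CPM. So was the collagen Col8a1, at 242 and 492 CPM against 3.25 and 0 CPM. In G mouse 2 Igf2 had the opposite order, at 35.4 CPM (3 UMIs) in arterial-only and 138 CPM (26 UMIs) in venous-only cells. Neither group of G mouse 1 held an Igf2 UMI. Elastin (Eln), the protein of the elastic lamina, rose over the whole cluster, from 56.2 and 52.8 CPM to 526 and 939 CPM (log2 fold change 3.65 ± 0.29 (SE), adjusted p = 2.67e-05). In L it was at 1089 and 1861 CPM in arterial-only and 397 and 439.9 CPM in venous-only cells, against 28.9 and 58.9 CPM and 58.3 and 90.1 CPM in G. Edn1 reached 454 and 920.3 CPM in arterial-only cells of L and 28.9 and 94.3 CPM in those of G.

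Aqp1, Rgcc and Plvap had the opposite order in lactation. Aqp1 was at 341 and 0 CPM in the arterial-only and 2794 and 2560.5 CPM in the venous-only cells of L, against 1431 and 625 CPM and 2214 and 1892 CPM in G. Rgcc was high in all 3 groups of G, at 2154 and 1875 CPM in arterial-only, 2001 and 2220.5 CPM in venous-only and 1859.7 and 2127 CPM in the remaining cells. In L it was lower in each, at 346 and 41.8 CPM, 566 and 977 CPM and 1205 and 574 CPM. The endothelial diaphragm protein Plvap was at 2075 and 2068 CPM in venous-only and 596 and 146 CPM in arterial-only cells of L. In G these groups held 738 and 636 CPM and 477 and 248 CPM. Cdh5 was between 702 and 1359 CPM in all 3 groups of every mouse.

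**Figure D4:**
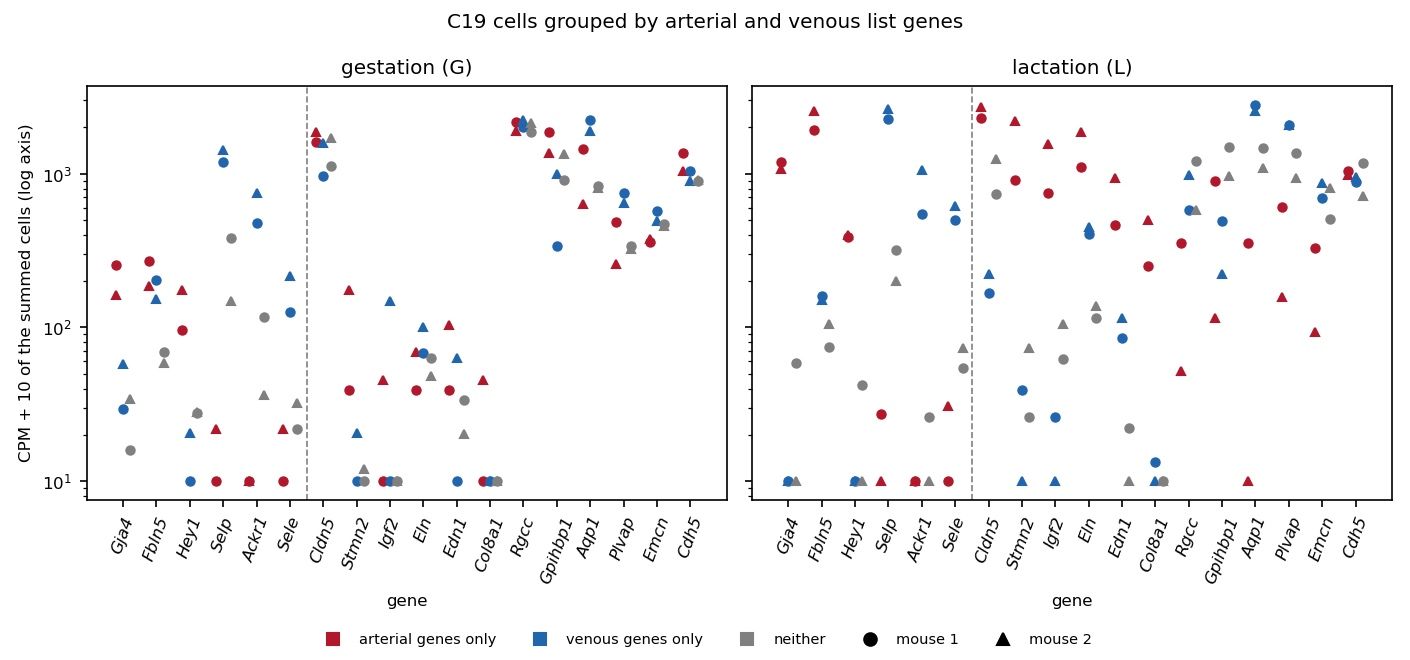
CPM + 10 (y axis, log scale) of 18 genes in C19 cells summed by mouse (circles mouse 1, triangles mouse 2) and by group, with cells holding 2 or more arterial list genes only in red, 2 or more venous list genes only in blue, and neither in grey, for G at the left and L at the right. The 6 genes left of the dashed line are list genes that formed the groups, and right of it Cldn5, Stmn2 and Igf2 lie apart between red and blue in L, where in G Cldn5 of both groups is near or above 952 CPM.

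Among signalling genes, several Notch and BMP components rose. On the Notch list 5 of 10 tested genes were higher and none lower: Hey1, Dll4, the feedback regulator Nrarp, the ligand Jag1 and Hes1. Nrarp was at 53.1 and 65.7 CPM in G and 147 and 161 CPM in L. Jag1 was at 40.6 and 63.1 CPM in G and 110.2 and 157 CPM in L. Of the receptors, Notch1 was at 109 and 134 CPM in G and 120.1 and 117 CPM in L and did not pass. Notch4, at 21.9 and 27.0 CPM in G and 47.0 and 64.5 CPM in L, did not pass either. Its mice did not overlap, like those of 56.7% of all genes tested. Hes1 rose by 0.76 but only L mouse 1 could be left out without losing the call (adjusted p of 0.094, 0.12 and 0.08 without G mouse 1, G mouse 2 or L mouse 2). On the BMP and TGF-beta list 7 of 16 were higher and 1 lower. Acvrl1, the endothelial receptor for BMP9, was at 46.8 and 63.1 CPM in G and 159.7 and 161 CPM in L (log2 fold change 1.41 ± 0.23 (SE), adjusted p = 0.0019). Its coreceptor Eng was at 349.7 and 315 CPM in G and 619 and 685 CPM in L. Among the ligands, Bmp4 was at 15.6 and 10.3 CPM in G and 50.7 and 101 CPM in L, and Bmp2 had 2 UMIs in G and 26 in L (ratio 13.5, counting interval 3.38 to 117). The target Id3 was at 805 and 617 CPM in G and 1281 and 1512 CPM in L. The inhibitory Smad6 and the receptor Bmpr2 rose as well, and the signal transducer Smad1 fell from 259 and 306 CPM to 198 and 117 CPM. Of these 8 calls Acvrl1 and Bmp4 passed whichever library was left out, and the rest did not. Without G mouse 2 the adjusted p was 0.089 for Eng, 0.11 for Id3, 0.26 for Bmpr2, 0.12 for Bmp2 and 0.13 for Smad1, and for Smad6 it was 0.06 without G mouse 1 and 0.055 without L mouse 1.

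No VEGF receptor passed the test, while 1 ligand rose and 1 fell. Kdr, the main receptor of VEGF-A, was at 375 and 411 CPM in G and 354 and 206 CPM in L. Flt1 was at 493 and 507 CPM in G and 665 and 581 CPM in L, and the coreceptor Nrp1 at 449.6 and 557 CPM in G and 687 and 468 CPM in L. Vegfc rose, as given above, and placental growth factor (Pgf) fell, from 53.1 and 100.4 CPM to 29.7 and 24.2 CPM, a call lost without G mouse 2 (adjusted p = 0.33). Vegfa was at 37.5 and 29.6 CPM in G and 7.43 and 24.2 CPM in L and did not pass. Among angiopoietin and Tie genes the receptor phosphatase Ptprb was at 306 and 251 CPM in G and 689 and 851 CPM in L (log2 fold change 1.39 ± 0.19 (SE), adjusted p = 0.000563). The receptor Tek rose by 0.76, a call lost whichever of the 4 libraries was left out (adjusted p from 0.056 to 0.21). The ligand Angpt2, at 74.9 and 157 CPM in G and 68.1 and 88.7 CPM in L, did not pass. Tip cell genes were divided. Apln, the tip cell peptide, was lower, at 24.98 and 33.5 CPM in G and 4.95 and 0 CPM in L. Adrenomedullin (Adm), a vasodilator peptide, was lower too, at 87.4 and 133 CPM in G and 38.4 and 44.3 CPM in L. Kcne3, a potassium channel subunit, and Igfbp3 were higher, and Kcne3 was at 9.37 and 7.72 CPM in G and 44.6 and 88.7 CPM in L. Adm lost its call without G mouse 2 (adjusted p = 0.055), and Igfbp3 without L mouse 1 (adjusted p = 0.44). For Igfbp3 that mouse held 447 CPM and L mouse 2 held 137 CPM.

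Of 9 vessel tone genes tested 4 rose, of 7 caveolar and transcytosis genes 5, and of 14 basement membrane genes 1. Besides Edn1, the tone list held 3 rises. Ptgs1, which makes prostaglandins, was at 31.2 and 20.6 CPM in G and 115 and 173 CPM in L. Ace, the angiotensin-converting enzyme, was at 49.95 and 39.9 CPM in G and 158 and 222 CPM in L. Ramp2, part of the adrenomedullin receptor, was the other. Nitric oxide synthase (Nos3), at 24.98 and 25.7 CPM in G and 37.1 and 68.5 CPM in L, did not pass. Among the caveolar genes Plvap was at 475 and 386 CPM in G and 1461 and 1125 CPM in L (log2 fold change 1.53 ± 0.19 (SE), adjusted p = 0.000316). Ehd4, which acts in membrane trafficking, was at 281 and 299 CPM in G and 834 and 794 CPM in L (log2 fold change 1.41 ± 0.17, adjusted p = 0.000244). Sdpr, Cav2 and Ehd2 rose by 0.92, 0.83 and 0.74, while Cav1 itself stood at 1146 and 1291 CPM in G and 1347 and 1266 CPM in L. The surface glycoprotein Clec14a was at 78.1 and 60.5 CPM in G and 210.4 and 185 CPM in L. Its binding partner in the matrix, Mmrn2, was at 175 and 156 CPM in G and 442 and 532 CPM in L, and both rose. Calls lost without a library were those of Ramp2 (adjusted p = 0.19 without G mouse 1, 0.18 without G mouse 2 and 0.091 without L mouse 1), Cav2 (adjusted p = 0.24 without G mouse 2) and Ehd2 (adjusted p = 0.19, 0.061 and 0.056 without G mouse 1, G mouse 2 and L mouse 2). Of the other pan-endothelial calls, Sox18 and Tm4sf1 were lost without G mouse 2 (adjusted p = 0.22) and without L mouse 2 (adjusted p = 0.082).

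On the basement membrane list 1 of 14 genes was higher and 2 were lower. Col18a1, the collagen that contains endostatin, was the higher, at 56.2 and 52.8 CPM in G and 103 and 189 CPM in L. Col4a2, a chain of collagen IV, was lower, at 902 and 905 CPM in G and 562 and 209.7 CPM in L. The laminin chain Lamc1 was lower as well, at 172 and 201 CPM in G and 92.8 and 105 CPM in L. Col4a1 had the same order as Col4a2, at 1246 and 1112 CPM in G and 941 and 407 CPM in L, with an adjusted p of 0.068. Lamc1 was lost without G mouse 2 or L mouse 1 (adjusted p = 0.064 and 0.054). Without the cells with immune UMIs 5 basement membrane genes were lower. On the growth factor list 4 of 13 genes rose and 2 fell. Igf1 was at 43.7 and 34.8 CPM in G and 101 and 133 CPM in L, and the matricellular factor Cyr61 at 490.2 and 349 CPM in G and 766 and 1189 CPM in L, and both rose beside Igf2 and Igfbp3. Of the other IGF binding proteins Igfbp7 fell from 7824 and 8122 CPM to 5486 and 2939 CPM, and Igfbp5 from 259 and 306 CPM to 58.2 and 165 CPM. On the coagulation list 2 of 10 genes rose, and its anticoagulant genes did not pass, thrombomodulin (Thbd) among them at 56.2 and 92.7 CPM in G and 145 and 125 CPM in L. The rises were Vwf and tissue plasminogen activator (Plat), at 12.5 and 9.01 CPM in G and 38.4 and 113 CPM in L.

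The 10 largest rises and 10 largest falls by fold among genes of at least 50 CPM in 1 stage mixed endothelial genes with genes that other clusters held at higher levels. The rises were led by the milk protein genes Csn1s2b and Wap. Csn1s2b had 0 UMIs in G and 109 and 80.6 CPM in L (at least 37.4-fold higher). Wap, the whey acidic protein, had 2 UMIs in G and 157 and 145 CPM in L (ratio 84.7, counting interval 23.1 to 705). The fibroblast-like C18 cells of L held 83.6 and 134 CPM of Csn1s2b and 139 and 178 CPM of Wap. Serpinf1 (ENSMUSG00000000753, chromosome 11, 75409769 to 75422701), which encodes the antiangiogenic factor PEDF, was at 6.24 and 7.72 CPM in G and 172 and 238 CPM in L (log2 fold change 4.65 ± 0.35 (SE), adjusted p = 2.12e-05). Egfl8, Tmem100 and Col8a1 had 3, 2 and 3 UMIs in G, with ratios of 36.0 (counting interval 11.99 to 177), 44.2 (11.9 to 371) and 36.4 (12.1 to 179). Egfl8, a paralogue of the leading gene Egfl7, and Tmem100, which is induced by endothelial BMP signalling, were at 81.7 and 153 CPM and 87.9 and 56.4 CPM in L. The solute carrier Slc10a6 was at 9.37 and 2.57 CPM in G and 111 and 105 CPM in L. Stmn2 and Bmx are given above. The macrophage gene C1qb had 2 UMIs in G and 71.8 and 40.3 CPM in L (ratio 35.3, counting interval 9.41 to 298).

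Among the 10 falls were genes of dividing cells, genes of C19 itself, and genes that other clusters of the gestation glands held at far higher levels. Slc39a8 (ENSMUSG00000053897, chromosome 3, 135825279 to 135888572), a zinc and manganese transporter, was at 197 and 107 CPM in G and 23.5 and 24.2 CPM in L (log2 fold change -2.65 ± 0.36 (SE), adjusted p = 0.000563), and C17 and C18 of the G mice held 2.21 and 3.73 CPM and 4.53 and 6.65 CPM. Car4, given above, was also mainly in C19. The histone gene Hist1h1b, at 153 and 100.4 CPM in G and 18.6 and 0 CPM in L, and the DNA ligase gene Lig1, at 62.4 and 65.7 CPM in G and 8.66 and 4.03 CPM in L, are used in DNA replication. Il17b fell from 81.2 and 72.1 CPM to 2.48 and 4.03 CPM (3 UMIs in L, ratio 26.3, counting interval 8.69 to 130.2), and basal C13 cells of the same G mice held 1274 and 1171 CPM. Follistatin (Fst), which binds activin, was at 215 and 129 CPM in G and 14.9 and 0 CPM in L in C19 and 1914 and 1611 CPM in C13 of G. For 1500015O10Rik the values were 106 and 77.2 CPM in G and 7.43 and 28.2 CPM in L in C19 and 1025 and 951 CPM in C13 of G. Egln3, a prolyl hydroxylase that acts on HIF, was at 93.7 and 47.6 CPM in G and 4.95 and 0 CPM in L in C19 and 208 and 297 CPM in C13 of G. Plet1 and Epcam are epithelial genes, and C8, the alveolar cluster of G, held 978 and 1217 CPM and 1548 and 1879 CPM of them. The part of RNA from other cells in these rises and falls was not tested. Of the 20 genes, Plet1 lost its call without G mouse 2 (adjusted p = 0.26), and the others passed in every omission in which they could be tested.

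MHC class II genes rose in lactation. The invariant chain Cd74 was at 62.4 and 28.3 CPM in G and 552 and 335 CPM in L (log2 fold change 3.43 ± 0.34 (SE), adjusted p = 8.87e-05). The class II chains, which display antigen to CD4 T cells, had the same order. H2-Ab1 was at 31.2 and 12.9 CPM in G and 194 and 157 CPM in L, H2-Aa at 31.2 and 6.44 CPM in G and 135 and 101 CPM in L and H2-Eb1 at 18.7 and 12.9 CPM in G and 169.6 and 76.6 CPM in L. On the whole list of 14 antigen presentation genes 6 rose and none fell, the others being Tap2 and the class I gene H2-D1. B2m, the light chain of class I, was at 4449 and 4096 CPM in G and 3919 and 5580.0 CPM in L. Immune C17 cells held 32816 and 46606 CPM of Cd74 in L. C18 cells held 40.8 and 173 CPM of it in G and 91.5 and 86.7 CPM in L. A Cd74 UMI was seen in 25.7% and 62.7% of C19 cells of L and in 27.8% and 30.8% of C18 cells. C1qb, of macrophages, rose in C19 beside these genes. The 11 immune genes summed to 43.7 and 50.2 CPM in G and 275 and 92.7 CPM in L, and Ptprc and Cd3e were at 6.19 CPM or less in every mouse. No UMI of the 11 immune genes was seen in 27 of 33 and 64 of 83 cells in G. In L this held for 138 of 191 and 30 of 51 cells. Only cells with a UMI of Ptprc, C1qa, C1qb or Lyz2 were counted as cells with immune UMIs. They numbered 3 and 15 in G and 38 and 16 in L. Without them the log2 fold change of Cd74 was 2.11 with an adjusted p of 0.02, and that of H2-Ab1 2.36 with an adjusted p of 0.0057. H2-Aa and H2-Eb1 then lost their calls, at 1.40 with an adjusted p of 0.19 and 1.47 with an adjusted p of 0.068. H2-D1 lost its call without G mouse 2 or L mouse 2 (adjusted p = 0.41 and 0.2), and Tap2 without G mouse 1, G mouse 2 or L mouse 2 (adjusted p = 0.075, 0.11 and 0.093). Reads of near-identical copies, such as the H2 genes and Hspa1a with Hspa1b, may have been divided between genes in counting.

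Immediate early and stress genes rose in C19, 15 of 20 in all. Jun was at 1801 and 1680.0 CPM in G and 4848 and 4769.6 CPM in L (log2 fold change 1.39 ± 0.15 (SE), adjusted p = 0.000119). The heat shock gene Hspa1a was at 565 and 378 CPM in G and 1798 and 3173 CPM in L, and the cytokine feedback gene Socs3 at 356 and 236 CPM in G and 1116 and 1524 CPM in L. Klf2, a factor that responds to blood flow, was at 443 and 388 CPM in G and 1092 and 2193 CPM in L. Together the 20 genes summed to 15907 and 15015 CPM in G and 31655 and 35093 CPM in L. Jun was higher in L in other cells of the same glands as well, at 976 and 761 CPM in G and 4104 and 3786 CPM in L in C17, and at 2563 and 2626 CPM and 4009.9 and 5757 CPM in C18. Calls were lost for Jund without G mouse 1 or L mouse 1 (adjusted p = 0.25 and 0.069), Klf4 without G mouse 2 or L mouse 2 (adjusted p = 0.13 and 0.081), Ier2 without G mouse 2 (adjusted p = 0.27) and Fosb without L mouse 1 (adjusted p = 0.052). Of 17 interferon response genes 2 rose, Ly6a and Ifitm2, and Rsad2 fell, and Ifitm2 was lost without G mouse 1 (adjusted p = 0.15). The glucocorticoid target Tsc22d3 was at 46.8 and 45.1 CPM in G and 286 and 177 CPM in L (log2 fold change 2.33 ± 0.28 (SE), adjusted p = 0.000222) and was the only 1 of 7 genes on its list to pass.

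The change in C19 was tested against that in the immune cluster C17 and the fibroblast-like cluster C18 of the same 4 mice. This was done in 1 edgeR fit over 12 sums with the mouse as a term, an analysis chosen after seeing the data, and it gives the change from G to L in C19 minus that in the other cluster on the log2 scale. Of 8042 genes tested the change differed from that in C17 for 165 (2.05%), from that in C18 for 40 (0.497%), and from both for 10 (0.124%). None of the 15 immediate early and stress genes that rose in C19 differed from C18. Of the same 15, Dnajb1 and Hspa1b differed from C17, by -2.50 with an adjusted p of 0.0018 and -1.69 with an adjusted p of 0.03, having risen more there. Among arterial genes Fbln5 differed from C18 (by 2.61 with an adjusted p of 0.03) and none of the 7 that could be compared differed from C17. Vegfc differed from C18 (by 5.01 with an adjusted p of 0.0059), as did Col18a1 (by 3.75 with an adjusted p of 0.0011). Of the fatty acid and capillary genes that passed in C19, Rgcc differed from C17 (by -2.87 with an adjusted p of 0.0034), and its difference from C18 was -1.69 with an adjusted p of 0.076. Cd74 differed from both, by 2.78 with an adjusted p of 0.02 for C17 and 3.38 with an adjusted p of 0.03 for C18. A difference that did not pass this test does not show that the cell types changed alike.

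Of 13 cell division genes tested 2 passed, both lower in L, with a median log2 fold change of -0.67. Over all genes tested 13% were called, 6.08% as lower, so a count of 2 says little about the list. Top2a, a topoisomerase of dividing cells, was at 46.8 and 95.3 CPM in G and 37.1 and 12.1 CPM in L. Ube2c, which acts in mitotic exit, was at 59.3 and 103 CPM in G and 39.6 and 48.4 CPM in L. Neither call was robust to omission, since Top2a was lost without G mouse 2 (adjusted p = 0.51) and Ube2c without G mouse 2 or L mouse 1 (adjusted p = 0.56 and 0.22). Both calls were also lost without the cells with immune UMIs (adjusted p = 0.11 for Top2a and 0.25 for Ube2c), and 4 of 12 genes passed as lower without the cells with lymphatic genes. After thinning to 1000 UMIs, 2 or more of the 15 genes were seen in 18.2% (95% interval 6.98 to 35.5) and 18.1% (10.5 to 28.0) of C19 cells of G and 4.71% (2.18 to 8.76) and 1.96% (0.0496 to 10.4) of L. Mki67, the proliferation marker, was at 78.1 and 94.0 CPM in G and 19.8 and 80.6 CPM in L and did not pass.

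Markers of other cell types moved with the stage to differing degrees. On the luminal epithelial list 4 of 5 tested genes were lower in L, Epcam, Krt18, Krt8 and Cldn3, and the 11 genes summed to 368 and 550 CPM in G and 158 and 149 CPM in L. Krt8 was lost without G mouse 2 (adjusted p = 0.28) and Cldn3 without L mouse 1 (adjusted p = 0.16). The basal list, which summed to 2498 and 1652 CPM in G and 2941 and 2447 CPM in L, held 3 rises of 9, in Cnn1, Krt15 and Oxtr. Krt15 was lost without L mouse 1 (adjusted p = 0.28), and Oxtr without G mouse 1 or L mouse 2 (adjusted p = 0.17 and 0.08). Cells rich in epithelial UMIs were those with more than 1% of their UMIs from the luminal and basal lists. They numbered 4 and 3 in the G mice and 2 and 1 in the L mice. Without them 7 of 8 tested basal genes were higher, the keratins Krt14, Krt17 and Krt5 among them. The basal genes are part of this rule, which left out a larger share of G cells, so that count is in part set by the filter. Without the cells with lymphatic genes 6 of 9 were higher. Cnn1, a muscle protein of basal cells, was at 62.4 and 65.7 CPM in G and 259.9 and 229.8 CPM in L in C19 and at 5216 and 4565 CPM in C14, the basal cluster of L. Of 7 milk protein genes tested 2 rose, Csn1s2b and Wap, and Csn1s1, Csn2 and Csn1s2a fell, the last of them lost without G mouse 1 or L mouse 1 (adjusted p = 0.32 and 0.12). On the fibroblast list fibronectin (Fn1) rose and Dcn fell, and Pdgfra was at 0 in both G mice and in L mouse 2. Dcn was lost without G mouse 1 or L mouse 1 (adjusted p = 0.27 and 0.13). None of the 7 pericyte genes passed. Hbb-bs was called higher on L mouse 1, with 28.1 and 0 CPM in G and 175 and 0 CPM in L (adjusted p = 0.046). The part of these cells in the results was not tested. Oxtr, on the hormone receptor list too, was the only 1 of 5 receptors there to pass, and Esr1, Pgr and Prlr were too low to be tested. All 6 adipocyte genes were too low as well.

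Cells with lymphatic genes were few. Prox1, the transcription factor that defines lymphatic endothelium, was at 12.5 and 78.5 CPM in G and 22.3 and 52.4 CPM in L. Lyve1, a hyaluronan receptor, was at 3.12 and 63.1 CPM in G and 3.71 and 117 CPM in L, and Mmrn1 at 0 and 34.8 CPM in G and 17.3 and 125 CPM in L. The stages overlapped in all 3. In 5, 4, 6 and 6 cells of G mouse 1, G mouse 2, L mouse 1 and L mouse 2 at least 2 of the 7 lymphatic genes were seen.

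The NP and PI libraries held too few C19 cells for a test, and their sums of 7, 13 and 10 cells are given as values. Pecam1 was at 1183 and 951 CPM in the NP mice and 1062 CPM in PI mouse 2. Rgcc, which was lower in L than in G, was at 2203 CPM (95 UMIs) and 1028 CPM (107 UMIs) in NP and 2781 CPM (144 UMIs) in PI, all above both L mice. Gja4, Stmn2 and Igf2 were below both L mice. Gja4 had 0, 4 and 2 UMIs in NP mouse 1, NP mouse 2 and PI mouse 2, Stmn2 had 0, 6 and 2, and Igf2 had none. The stress gene Hspa1a was at 162 and 211 CPM in NP and 96.5 CPM in PI, below every G and L mouse. Other genes of its list did not share this order. Socs3, at 510 and 528 CPM in NP and 444 CPM in PI, was above both G mice and below both L mice. Jun was at 1763 and 1441 CPM in NP and 1352 CPM in PI, and its value in NP mouse 1 lay between those of the G mice. Selp stood at 1067 and 1143 CPM in NP and 927 CPM in PI, above both G mice. One leading gene, 8430408G22Rik, was at 756 and 639.8 CPM in G and 886 and 564 CPM in L but had 3 and 9 UMIs in NP (69.6 and 86.5 CPM) and 1 UMI in PI (19.3 CPM). Thus it led in C19 at the stages with enough cells and was lower in the small sums of the others than in every G and L mouse.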

How the data were processed

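Single-cell RNA-seq libraries (10x Chromium, 3′ end) of 8 mice had been aligned with STAR to mm10 per the submitters' processing notes, and the authors deposited 1 matrix of UMI counts per library, raw and not normalized, with 1 table of cell annotations. From that table the cluster, the quality and doublet flags and the library of each cell were used, and the mitochondrial fraction of each cell is as the authors deposited it. The authors had removed cells of low depth and of high mitochondrial share, and clustered and flagged doublets before deposit. Cluster members were chosen by the authors' annotation, and the members and the 32 gene lists (344 genes) were chosen with earlier results of these data known. 

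Counts were summed over the C19 cells of each mouse. The 2 stages with 20 or more cells in both mice were compared with edgeR 4.0.16 in R 4.3.3, using filterByExpr, TMM scaling, and the quasi-likelihood F-test with Benjamini-Hochberg adjustment at 0.05. Adjusted p-values are from this fit unless said otherwise, and they measure the spread between single mice. A named or list gene with 1 to 3 UMIs in a stage is given as a ratio with its counting interval (95%). One with none is given as a bound at a floor of 3 UMIs over both mice. No such interval was made for Fcer1g, which is neither a named nor a list gene. All intervals cover counting error only. Fits with 1 library left out assume that the lone mouse varies as the other stage does. Named genes were the 10 rises and 10 falls of largest fold among called genes with at least 50 CPM in 1 stage, beside the list genes. Leading genes had 100 CPM or more in both L mice and the largest ratio, with 10 CPM added, to the highest other cluster. Positions are from GENCODE on GRCm38, in which 27645 of 27998 gene IDs of the files were found. The replicate numbers were not used to pair the mice. The differences between mouse 1 and mouse 2 of G and of L correlated at 0.0305 over 6596 genes, which cannot show whether the mice were paired. On simulated counts for this comparison (6505 genes) the test recovered 84% of genes changed by 2 on the log2 scale and 15.6% of those changed by 1. For the difference from C18 it recovered 21% of genes changed by 2 (8198 genes). Both simulations set the dispersion, a measure of the spread between mice, to 0.05. The common dispersion fitted to the data of L against G was 0.0193, so the simulated spread was wider. The result of 1 gene is not reported here.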

Additional observations from a re-analysis of the deposited data

Results flagged for a closer look

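For 10 genes, 0.124% of those tested, the change from G to L in C19 differed from that in both other clusters compared. These were the immune cluster C17 and the fibroblast-like cluster C18 of the same 4 mice, in the edgeR fit with the mouse as a term. Among the 10 genes, 8 that also passed the test within C19 are given here. Each difference is the log2 change in C19 minus that in the other cluster.

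Matrix Gla protein (Mgp), an inhibitor of calcification, was at 178 and 126 CPM in G and 547 and 496 CPM in L in C19 and at 3831 and 4627 CPM in G and 1129 and 1483 CPM in L in C18. Both L mice were above both G mice in C19 and below them in C18, and the difference was 3.30 against C18 (adjusted p = 0.0011) and 3.34 against C17 (adjusted p = 0.0011). Serpinf1 was low in C19 of G and at 2028 and 2134 CPM in G and 2209 and 2285 CPM in L in C18, with a difference of 4.38 against C18 (adjusted p = 0.0019) and 3.77 against C17 (adjusted p = 0.01). The lysosomal protease genes Ctsd and Ctsh were at 78.1 and 127 CPM in G and 279.7 and 327 CPM in L and at 28.1 and 24.5 CPM in G and 124 and 101 CPM in L in C19. Their differences were 1.79 against C18 (adjusted p = 0.031) and 4.80 against C17 (adjusted p = 1.03e-06) for Ctsd, and 2.70 against C18 (adjusted p = 0.012) and 1.93 against C17 (adjusted p = 0.032) for Ctsh. In C17, Ctsd was at 1271 and 1474 CPM in G and 103 and 136 CPM in L.

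Genes best known from leukocytes were Cd74, with a difference of 3.38 against C18 (adjusted p = 0.03) and 2.78 against C17 (adjusted p = 0.02), and Fcer1g, an Fc receptor subunit, with 5.69 against C18 (adjusted p = 0.022) and 3.20 against C17 (adjusted p = 0.036). Fcer1g was at 3.12 and 2.57 CPM in G and 40.8 and 40.3 CPM in L in C19, on 3 UMIs in G, and at 1176 and 1393 CPM in G and 1781 and 1865 CPM in L in C17. The lipid enzyme gene Hacd4 was at 3.12 and 6.44 CPM in G and 30.9 and 56.4 CPM in L in C19, with a difference of 3.36 against C18 (adjusted p = 0.03) and 3.21 against C17 (adjusted p = 0.02). The summed 11 immune genes were also higher in both L mice than in the G mice, most in L mouse 1, as given above. Their part was not tested.

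For Pim1 the difference was negative. This kinase gene fell in C19, where it was at 418 and 229 CPM in G and 142 and 202 CPM in L, and was at 140.4 and 73.1 CPM in G and 205 and 295 CPM in L in C18, with a difference of -2.28 against C18 (adjusted p = 0.029) and -1.82 against C17 (adjusted p = 0.026). The outlying mice of a group could not be tested, since each stage had 2.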

How the results depend on the processing

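Of 289 genes named or on a list and tested, 117 passed. The count of calls stayed within 1.5 times of 857 with DESeq2's size factors, with 2 other filters on low counts, and without the cells rich in epithelial UMIs, with lymphatic genes or with immune UMIs (the last 2 chosen after seeing the data), and DESeq2's size factors changed none of the 117 calls. Besides the omission of G mouse 2 given below, 4 settings moved it further: testing against a log2 change of 1 at a false discovery rate of 0.01 left 34 genes (29 higher, 5 lower), DESeq2's Wald test 276 (160 higher, 116 lower), equal numbers of cells per mouse 365 (210 higher, 155 lower, 3821 genes tested), and thinning to 1000 UMIs per cell 204 (117 higher, 87 lower, 1245 genes tested). The last 2 tested fewer genes by their construction, and the cause of the other moves was not tested. Of the 117 calls, 41 were lost with DESeq2's Wald test and 14 of those still tested after thinning, among them Vwf, Clec14a, Csn1s1 and Hspa1b. With 1 mouse left out the calls numbered 486 to 1046, with 289 to 556 higher and 197 to 490 lower, the fewest without G mouse 2 and the most without L mouse 2. Lyve1, which did not pass, ranged from -3.51 without L mouse 2 to 3.63 without G mouse 2 on the log2 scale. Ube2c changed sign with equal numbers of cells, at 0.0872. Thinned to 1000 UMIs, the mean level of Gng11 in G was 1145 CPM and that of Pecam1 in L 1224 CPM. With the replicate block 786 genes passed, 725 of them shared with the unblocked fit, although the sample labels state no pairing of the mice. The fit already holds the libraries of the 2 stages alone, so that alternative gave the same values. C19 in NP and PI was limited by its 30 cells.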
